A study of Mus musculus with 36 samples.

Results

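The genes described here are the cytochrome P450 enzymes of families 2 and 3, taken as every gene of the table whose symbol is Cyp2 or Cyp3 followed by 1 subfamily letter and a number. They numbered 54 of 20098 genes. Values are FPKM (mapped fragments per kilobase of transcript, scaled to the size of the library) in 36 libraries, 18 from lung and 18 from liver, with 3 libraries in each of 6 groups per tissue. All animals were wild-type male C57BL/6J mice. NDC and NDE were mice on normal diet that breathed filtered air (C) or real-ambient PM2.5 (E). DIOC and DIOE were mice with diet-induced obesity from a high-fat diet, and T1DC and T1DE were mice in which type 1 diabetes was produced with repeated low doses of streptozotocin, a toxin of the insulin-producing beta cell, each under the same kinds of air. Obesity here stands for 1 diet, and the diabetic mice also carry whatever streptozotocin did to other cells. Male mice were the only sex studied, which bears on genes that differ between the sexes in mouse liver. The sources used here do not give the hour of tissue collection or say whether a lung and a liver library came from the same mouse.

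P450 enzymes are haem proteins that insert an oxygen atom into fat-soluble molecules, using electrons passed on by P450 oxidoreductase (Por) and cytochrome b5. Families 2 and 3 act mainly on drugs, solvents, plant and smoke chemicals, steroids, bile acids and fatty acids, and the hepatocyte is their main site, while the club cell of the airway carries a narrower set. In rodent liver, many are induced through the nuclear receptors CAR (Nr1i3) and PXR (Nr1i2), and several differ between males and females through the timing of growth hormone pulses.

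Most members sit in gene clusters that arose by duplication. The 15 Cyp2c genes lay on chromosome 19 between 39006940 and 44029256 (RefSeq, GRCm38.p6), the 8 Cyp2d genes on chromosome 15 between 82370527 and 82794452, and the 4 Cyp2a and 5 Cyp2b genes on chromosome 7. The 7 Cyp2j genes lay on chromosome 4 and the 7 Cyp3a genes on chromosome 5. The remaining members, 1 gene each, were Cyp2e1, Cyp2f2, Cyp2g1, Cyp2r1, Cyp2s1 and Cyp2t4 on chromosome 7, Cyp2u1 on chromosome 3 and Cyp2w1 on chromosome 5. With the limit set at 1 FPKM in 3 or more libraries of the tissue, 16 members passed in lung and 37 in liver, of which 13 passed in both. Cyp2c65, Cyp2j13 and Cyp2s1 passed in lung alone, 24 passed in liver alone, and 14 passed in neither. Those 14 were Cyp2b13, Cyp2b19, Cyp2b23, Cyp2c55, Cyp2c66, Cyp2d11, Cyp2g1, Cyp2j8, Cyp2j11, Cyp2j12, Cyp2t4, Cyp2w1, Cyp3a16 and Cyp3a57, and the highest FPKM among them was 4.15, for Cyp2b13 in a T1DC liver. Just inside the limit, the third highest library held 1.06 FPKM for Cyp2r1 in lung and 1.06 for Cyp2d12 in liver. Just outside it stood Cyp2c50 in lung (0.98) and Cyp2g1 in liver (0.91).

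Near-identical copies decide how well a short read can be given to 1 member, so stretches of Cyp2a4 and Cyp2a5, the pair with the highest coding identity of those aligned, are shown first. Cyp2a4 is a steroid 15-alpha-hydroxylase that is higher in female than in male mouse liver, and Cyp2a5 hydroxylates coumarin and nicotine. Their coding sequences differed at 23 of 1482 bases (98.448% identity). Cyp2a4 (gene ID 13086) lies at chr7:26307192-26315088 and Cyp2a5 (gene ID 13087) at chr7:26835339-26843264, both on the plus strand. The coding part of exon 4 is printed from GENCODE transcripts on GRCm38, at chr7:26308928-26309088 and chr7:26837091-26837251, with the 5 bases that differ in capitals. A fragment that covers none of those bases is the same for both genes in this stretch.
Cyp2a4: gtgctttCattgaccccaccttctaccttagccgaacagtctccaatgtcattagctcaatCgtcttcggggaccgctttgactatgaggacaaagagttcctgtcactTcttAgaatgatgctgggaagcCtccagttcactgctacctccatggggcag
Cyp2a5: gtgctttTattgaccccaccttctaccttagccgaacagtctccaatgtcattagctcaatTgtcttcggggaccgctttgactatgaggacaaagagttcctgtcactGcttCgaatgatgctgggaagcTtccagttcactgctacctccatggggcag

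The bases just before the annotated start were also close to identical (98.394%). Over the 249 bases at chr7:26306943-26307191 for Cyp2a4 and at chr7:26835089-26835337 for Cyp2a5 (RefSeq, GRCm38.p6, plus strand), 4 bases differed, in capitals below, and both held the letters TATAAA. They are shown because the levels of these genes in liver, given further on, were far apart.
Cyp2a4: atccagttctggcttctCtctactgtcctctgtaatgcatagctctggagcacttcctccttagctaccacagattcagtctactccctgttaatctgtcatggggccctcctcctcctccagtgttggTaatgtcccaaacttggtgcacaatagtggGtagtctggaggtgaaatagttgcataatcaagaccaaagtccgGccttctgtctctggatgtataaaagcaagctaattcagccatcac
Cyp2a5: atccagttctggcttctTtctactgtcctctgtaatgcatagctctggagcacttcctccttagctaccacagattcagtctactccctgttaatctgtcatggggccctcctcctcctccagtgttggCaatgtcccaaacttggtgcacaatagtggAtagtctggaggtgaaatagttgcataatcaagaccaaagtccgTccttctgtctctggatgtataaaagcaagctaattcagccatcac
Cyp2b9, a P450 known from female mouse liver, and its neighbour Cyp2b13, which did not pass the limit, are shown because they were close before the start although their coding identity was lower, at 92.736%. Their 143 bases at chr7:26173159-26173301 and chr7:26061245-26061387 differed at 2 positions, in capitals.
Cyp2b9: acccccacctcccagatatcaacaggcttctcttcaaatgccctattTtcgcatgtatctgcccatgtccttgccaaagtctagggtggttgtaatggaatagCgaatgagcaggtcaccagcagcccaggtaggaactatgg
Cyp2b13: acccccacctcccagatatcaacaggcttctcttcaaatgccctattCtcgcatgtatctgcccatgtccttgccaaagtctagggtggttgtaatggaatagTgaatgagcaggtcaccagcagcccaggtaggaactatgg
Among the 47 members with a promoter in the RefSeq table, 21 (44.681%) held TATAAA on either strand in the 250 bases before the start, against 12.966% of all 27025 promoters. The STAT5 motif TTCNNNGAA was in 2 members (4.255%, against 7.179% of all), the D-box TTANGTAA of the clock output factors in 1 (2.128%, against 2.105%) and the HNF1 half-site GTTAAT in 6 (12.766%, against 6.52%), again on both strands. A match is a string of letters and not a measured binding site.

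Over stretches of 50 bases, 33 members shared under 20% of their transcript exactly with another gene, 18 shared 20 to 50%, and 3 shared over 50%, namely Cyp2c40 (72.121%), Cyp2c69 (54.79%) and Cyp2c67 (52.763%). The value was 38.011% for Cyp2a4, 40.835% for Cyp2a5 and 0 for Cyp2c70 and Cyp2f2. Levels of the members with long shared stretches are therefore uncertain. Cyp2c38, on the minus strand of chromosome 19, lies inside the span of Cyp2c39 on the plus strand, and whether fragments were counted by strand is not given, so that reads of these overlapping genes may not be told apart.

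By an estimate from the steps in low FPKM values, depth was 16.2 to 20.7 M fragments (M for mega) in lung and 17.6 to 19.7 M in liver. The T1DE livers and T1DC replicates 1 and 3 were at 17.6 to 18.6 M, and ND and DIO livers at 18.7 to 19.7 M. T1DC replicate 2 was at 19.3 M. Genes above 0 FPKM split likewise, at 16354 to 16712 against 14683 to 15381, with 15295 in T1DC replicate 2. The part of these differences in the P450 values was not tested. The liver libraries carried hepatocyte markers throughout, with a mean log2(FPKM + 1) over the 16 markers of 11.46 to 11.98. The T1DC liver library of replicate 2 stood apart from the other diabetic livers. Among the 15 members that rose in T1DE against NDE, described further on, it was under both other T1DC libraries for 14, the exception being Cyp3a13, and within the range of the ND and DIO livers for 9. The other T1DC livers were above every ND and DIO liver for 12 of the 15, and the T1DE livers for 11. Since the 15 were picked as higher in T1DE, the count for T1DE is partly set by that choice. The share over all genes was not worked out for these counts. Many counts and some single values that rest on T1DC are therefore given with and without this library, and the others with it alone. As it was singled out by the members' own values, leaving it out tends to raise their counts and differences. Results without it are therefore not separate support. In lung, the scores of marker lists varied widely over the 18 libraries, from 0.48 to 5.02 for hepatocytes, 0.43 to 5.12 for squamous epithelium, 0.88 to 5.19 for skeletal muscle and 2.70 to 7.04 for white adipocytes. Within DIOC alone the hepatocyte score ran from 0.69 to 5.02. In whole tissue, fewer cells of a type and less RNA per cell cannot be told apart.

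Members took 1.70 to 3.13% of the summed FPKM of a liver library and 0.327 to 0.541% of a lung library. The liver was led by Cyp2e1, which oxidises ethanol, acetone and small solvents, at 4059 to 7280 FPKM, or 40.7 to 55.4% of the members' sum. Cyp3a11, the main PXR-inducible drug oxidase of mouse liver, followed at 400 to 1878 FPKM, then Cyp2d9, a testosterone 16-alpha-hydroxylase higher in males, at 404 to 1340, Cyp2d26 at 402 to 827 and Cyp2f2 at 324 to 695. The lung was dominated by 1 gene. Cyp2f2, the naphthalene-oxidising P450 of club cells, reached 1295 to 2172 FPKM and made up 65.2 to 84.6% of the members' sum, ahead of Cyp2b10 (116 to 245), Cyp2e1 (10.7 to 333), Cyp2a5 (18.7 to 272) and Cyp2s1 (43.4 to 80.9), a P450 of lining epithelia. FPKM is per length, so these levels can be set against each other. Of the 40 members that passed in either tissue, 30 were higher in every liver library than in any lung library, 3 were higher in every lung library (Cyp2b10, Cyp2f2 and Cyp2s1), and 7 overlapped. As 24 of the 40 passed in liver alone, this count is partly set by the limit. The share over all genes was not worked out for it.

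**Figure D1:**
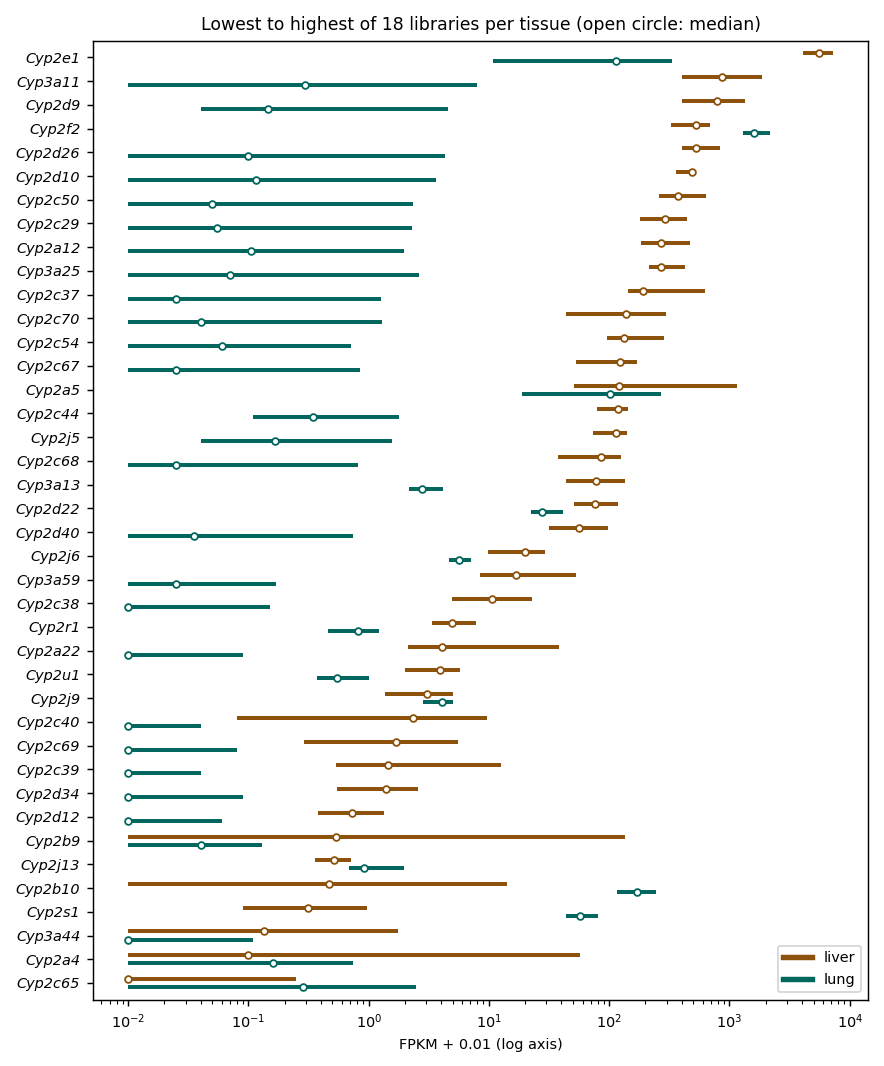
FPKM of the members that passed in lung or liver, on a log axis of FPKM + 0.01, with a bar from the lowest to the highest of 18 libraries and an open circle at the median for each tissue. Cyp2b10, Cyp2f2 and Cyp2s1 are higher in lung, and for 30 of the 40 members the whole liver bar lies above the lung bar. The share over all genes was not worked out.

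The plain order among leading liver members was Cyp2e1, then Cyp3a11, Cyp2d9, Cyp2d26 and Cyp2f2 by mean. Cyp2e1 did not overlap with any of them, while the ranges of the other 4 overlapped each other. With all libraries, none of Cyp2e1, Cyp3a11, Cyp2d26 and Cyp2f2 was called in a liver comparison, where a call means both a fold above 1.5 and an adjusted p below 0.05 in limma. In the NDC, NDE, DIOC, DIOE, T1DC and T1DE livers, in that order and by replicate, Cyp2e1 stood at 4707.75, 4953.46 and 5214.48, at 5549.58, 5052.87 and 5455.55, at 4913.97, 5857.47 and 5639.54, at 6038.71, 6649.71 and 5683.15, at 5548.32, 4058.61 and 7280.09, and at 6948.73, 5732.63 and 5724.75 FPKM. Cyp3a11 stood at 763.53, 868.32 and 1637.53, at 660.96, 631.5 and 626.61, at 805.78, 1365.15 and 1095.98, at 763.81, 962.19 and 1348.77, at 1022.78, 400.15 and 1877.74, and at 853.2, 1190.69 and 653.72. Its lowest and highest libraries of all were both T1DC, replicates 2 and 3. Cyp2d26 stood at 496.95, 532.87 and 401.7, at 615.06, 557.59 and 502.37, at 427.34, 468.53 and 479.75, at 492.79, 515.86 and 497.11, at 677.13, 546.05 and 826.87, and at 607.06, 615.29 and 669.03. Cyp2f2 stood at 620.88, 455.04 and 342.58, at 633.45, 633.1 and 403.12, at 381.9, 438.29 and 443.92, at 324.46, 453.2 and 587.89, at 694.72, 626.57 and 569.72, and at 482.43, 668.18 and 674.55. The nearest to a call against the normal diet was Cyp2d26, whose T1DC libraries were above all NDC libraries at a log2 difference of 0.51 (SE 0.14, adjusted p = 0.0285), under the fold limit. Without T1DC replicate 2, Cyp2d26 was called higher in T1DC than in NDC (0.66, adjusted p = 0.00322) and DIOC (0.71, adjusted p = 0.00188).

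Most calls on the liver members came from comparisons of diabetic with other mice. The comparison of T1DE with NDE asks which P450 transcripts differ between diabetic and normal mice that both breathed PM2.5. Of 37 members tested, 15 rose (8.25% of all 10806 genes did) and 1 fell (1.26% of all genes), which is 43.24% of the members. The median log2 difference of the members was 0.45, beside 0.23 over all genes. The matching comparison under filtered air, T1DC with NDC, had 10 members higher (4.39% of all genes) and 1 lower (0.824%), with medians of 0.44 and 0.16. Without T1DC replicate 2 these became 17 higher (8.2% of all genes) and 2 lower (1.71%), a total of 19 in place of 11. The total was 6 or 7 without NDC replicate 1 or 3 or T1DC replicate 1 or 3, and 1 in a fit of these groups alone, so the calls in filtered air rest on the spread shared over all 6 groups. The calls on Cyp2a4, Cyp2a22, Cyp2b10, Cyp2c39 and Cyp2c70 held there whichever of the 6 libraries was left out, and those on Cyp2a12, Cyp2b9, Cyp2c38, Cyp2c50, Cyp2d9 and Cyp3a13 did not. All 4 Cyp2a genes and both tested Cyp2b genes (2 of 5 in all) rose in T1DE. So did 6 of 12 Cyp2c and 3 of 5 Cyp3a genes, while of 7 Cyp2d genes none rose and Cyp2d9 fell. Cyp2a4, Cyp2b9, Cyp2b10 and Cyp3a44 passed the limit of 1 FPKM only with the diabetic livers counted. Being tested and being higher in diabetes are therefore tied for them, and their rise is not separate support for these counts. In T1DC against NDC, 3 of 4 Cyp2a, 2 of 2 Cyp2b, 4 of 12 Cyp2c and 1 of 5 Cyp3a genes rose, and Cyp2d9 fell. Without T1DC replicate 2 these were 4 of 4 Cyp2a, 2 of 2 Cyp2b, 6 of 12 Cyp2c and 3 of 5 Cyp3a genes, and of the Cyp2d genes Cyp2d22 (0.70, adjusted p = 0.00975) and Cyp2d26 rose and Cyp2d9 and Cyp2d40 fell. No Cyp2e, Cyp2f, Cyp2j, Cyp2r or Cyp2u gene was called in either, or in T1DC against NDC without that library. At an unadjusted p under 0.05 in limma, 20 of 37 members differed in T1DE against NDE, beside 44.96% of all genes. In T1DC against NDC 18 of 37 did, beside 32.08% of all genes. Every T1DE library was above every NDE library for 21 of 37 members, beside 50.91% of all genes, and below for 4, beside 5.543%. For T1DC and NDC these were 13 members (24.67% of all genes) and 1 (3.859%). Lack of overlap at single members, given below, is to be read beside these shares.

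The level of most genes was slightly higher in diabetic livers, and scaling changes the counts. With median-ratio scaling the median of all genes moved by -0.14 in T1DC against NDC and by -0.20 in T1DE against NDE, to 0.02 and 0.03. The split of all calls went from 891 higher and 136 lower to 344 and 261 in T1DE against NDE, and from 474 and 89 to 227 and 147 in T1DC against NDC. The members went from 15 and 1 to 9 and 2, and from 10 and 1 to 6 and 1. In T1DE against NDE, Cyp2a4, Cyp2a22, Cyp2b9, Cyp2b10, Cyp2c39, Cyp2c50, Cyp2c54, Cyp2c70, Cyp3a59 and Cyp2d9 were called in both, and Cyp2a5, Cyp2a12, Cyp2c37, Cyp2c38, Cyp3a13 and Cyp3a44 were not called after scaling.

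Cyp2a4 was almost absent from non-diabetic livers. It was at 0, 0.55 and 0.11 FPKM in NDC, 0, 0 and 0.04 in NDE, 0.01, 0.05 and 0 in DIOC, 0.05, 0.07 and 0.13 in DIOE, 57.3, 1.05 and 35.62 in T1DC and 33.41, 18.93 and 29.38 in T1DE. Every diabetic liver was above every other liver, and T1DC replicate 2 was the lowest diabetic one. The fitted log2 difference was 4.76 (SE 0.77, adjusted p = 0.0008) for T1DE against NDE and 3.77 (SE 0.77, adjusted p = 0.00752) for T1DC against NDC, or 5.27 (SE 0.22) without that library. With groups near 0 these sizes depend on the 1 FPKM added before taking logs, and no fold is given.

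Cyp2a5, its near-identical partner, was well expressed in every liver. It was at 116.05, 248.45 and 248.54 FPKM in NDC, 204.56, 80.62 and 110.44 in NDE, 61.2, 109.73 and 69.79 in DIOC, 50.51, 95.25 and 102.25 in DIOE, 1160.91, 126.17 and 971.62 in T1DC and 362.6, 470.23 and 698.49 in T1DE. T1DE was above all non-diabetic livers, and in T1DC replicate 2 alone lay among them. The log2 difference was 2.001 (SE 0.63, adjusted p = 0.0266) for T1DE against NDE. That call was lost without NDE replicate 2 or 3 or T1DE replicate 2 or 3 (adjusted p = 0.0567 to 0.0968 in limma), with differences of 1.70 to 2.03. For T1DC against NDC it was 1.43 and not called (adjusted p = 0.129), but 2.46 (SE 0.42, adjusted p = 0.00123) without replicate 2.

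The other pair of the subfamily, Cyp2a12 and Cyp2a22, is 96.951% identical in coding sequence. Cyp2a12, which hydroxylates steroids and bile acids in mouse, was at 278.98, 273.55 and 220.38 FPKM in NDC, 289.71, 269.32 and 231.05 in NDE, 183.2, 206.95 and 224.02 in DIOC, 203.63, 245.71 and 242.69 in DIOE, 471.31, 315.23 and 446.74 in T1DC and 388.1, 424.64 and 402.43 in T1DE. Cyp2a22 was at 4.03, 5.43 and 2.1 in NDC, 5.39, 3.73 and 4.1 in NDE, 2.76, 2.74 and 2.86 in DIOC, 2.53, 3.08 and 3.59 in DIOE, 34.54, 7.25 and 38.1 in T1DC and 29.13, 22.39 and 21.41 in T1DE. All 6 diabetic livers were above the other 12 for both genes. Against the normal diet, the log2 difference of Cyp2a12 was 0.62 (SE 0.15, adjusted p = 0.00702) in PM2.5 and 0.66 (adjusted p = 0.0115) in filtered air, and that of Cyp2a22 was 2.23 (SE 0.41, adjusted p = 0.00178) and 2.28 (adjusted p = 0.00368). Without NDE replicate 3 the Cyp2a12 difference was 0.53, under the fold limit. The Cyp2a share of the members' summed FPKM was 3.88 to 4.99% in NDC, 3.26 to 4.37% in NDE, 4.87 to 12.7% in T1DC and 6.02 to 9.14% in T1DE.

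Among the Cyp2b genes, Cyp2b9 was at 0.03, 0.6 and 0 FPKM in NDC, 0.32, 0.09 and 0.06 in NDE, 0.09, 0.17 and 0.44 in DIOC, 2.71, 2.56 and 0.17 in DIOE, 98.49, 0.77 and 135.18 in T1DC and 101.65, 49.16 and 54.75 in T1DE. The diabetic livers were above the rest save T1DC replicate 2, which lay below 2 DIOE libraries. The log2 difference from NDE was 5.84 (SE 1.06, adjusted p = 0.00161) and from NDC 4.61 (SE 1.06, adjusted p = 0.0127), or 6.62 without replicate 2, sizes that again depend on the added 1. Cyp2b10, the gene most used as a readout of CAR in mouse liver, was lower than Cyp2b9 in all diabetic livers but T1DC replicate 2. It was at 0.2, 0.15 and 0.14 FPKM in NDC, 0.06, 0.03 and 0 in NDE, 0.69, 0.51 and 0.41 in DIOC, 0.28, 0.23 and 0.9 in DIOE, 4.38, 1 and 14.04 in T1DC and 7.5, 13.7 and 5.84 in T1DE. All diabetic livers were above all others, and the log2 difference was 3.20 (SE 0.47, adjusted p = 0.000362) in PM2.5 and 2.23 (adjusted p = 0.00844) in filtered air. Cyp2b13, which did not pass, was at 1.29, 0.03 and 4.15 in T1DC and 0.88, 0.71 and 0.3 in T1DE, and at 0 in all NDC and NDE livers.

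**Figure D2:**
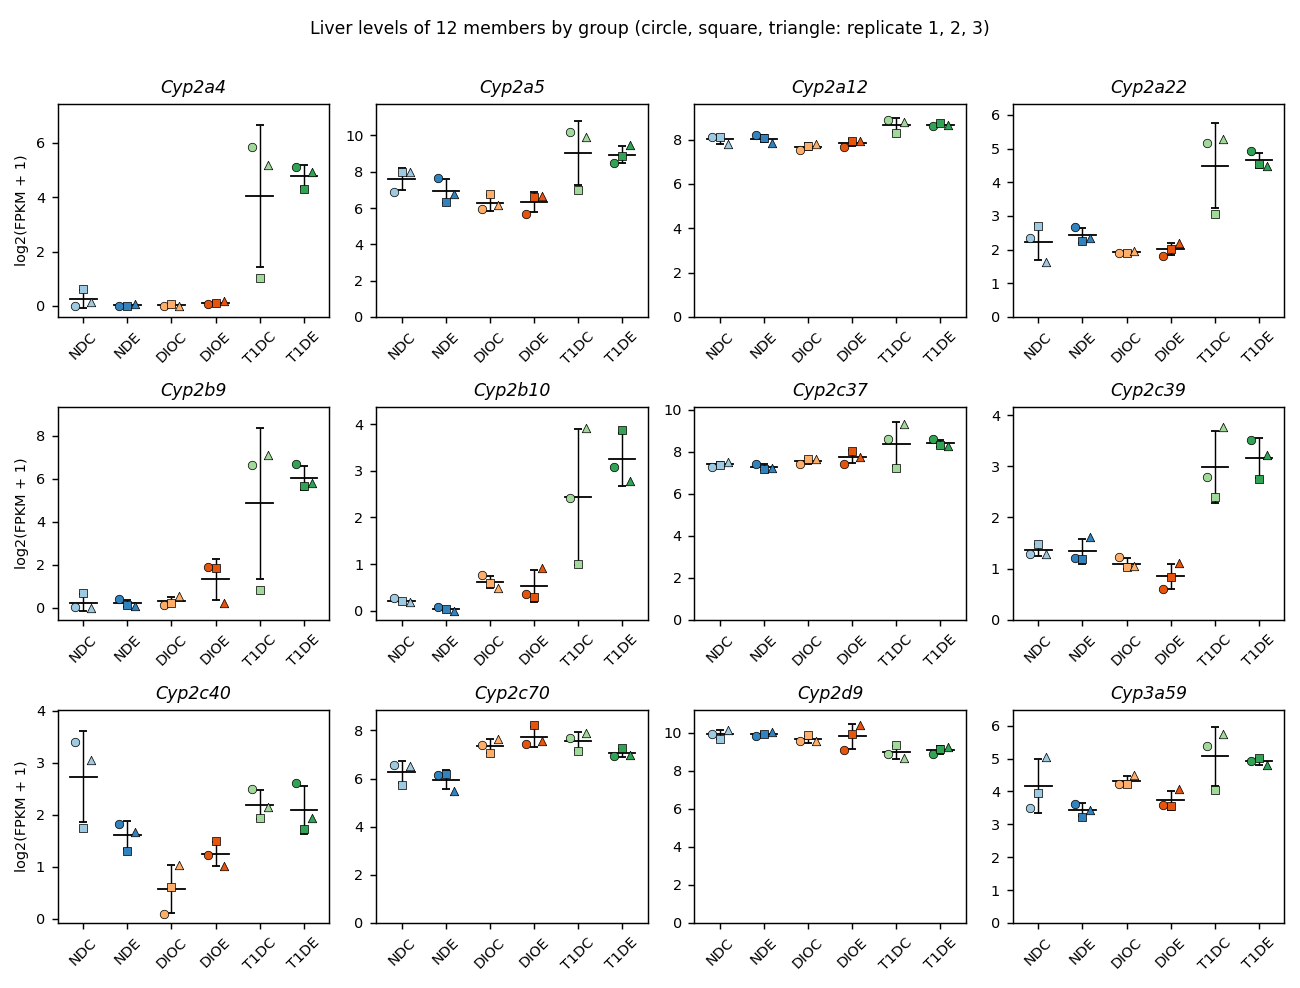
log2(FPKM + 1) of 12 liver members in the 6 groups, with circle, square and triangle for replicates 1, 2 and 3, a black line at the mean of the log2 values and a bar for the SD (n = 3). The T1DC square lies below the other T1DC points for Cyp2a4, Cyp2a5 and Cyp2b9, and T1DE lies above NDE and DIOE in each of these panels.

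The Cyp2c genes, many of which oxidise arachidonic acid, moved in several ways. Cyp2c39, which can oxidise retinoic acid, was at 1.45, 1.81 and 1.45 FPKM in NDC, 1.3, 1.27 and 2.08 in NDE, 1.33, 1.04 and 1.06 in DIOC, 0.52, 0.79 and 1.15 in DIOE, 5.91, 4.26 and 12.55 in T1DC and 10.38, 5.72 and 8.37 in T1DE. No diabetic value overlapped another group. It rose in T1DE against NDE by a log2 difference of 1.83 (SE 0.26, adjusted p = 0.00034), the lowest adjusted p of the members there, and by 1.62 (SE 0.26, adjusted p = 0.00176) in filtered air. Its overlapping neighbour Cyp2c38 was at 7.13, 13.1 and 9.53 in NDC, 11.75, 9.19 and 11.46 in NDE, 4.93, 9.28 and 7.71 in DIOC, 9, 6.46 and 5.74 in DIOE, 16.41, 14.8 and 18.07 in T1DC and 22.94, 19.93 and 17.56 in T1DE. It rose by 0.84 (SE 0.21, adjusted p = 0.00946) and 0.71 (adjusted p = 0.0389) in these comparisons.

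Cyp2c37, Cyp2c50 and Cyp2c54, a group of arachidonic acid oxidases whose coding sequences are 95.1 to 96.1% identical, rose together in T1DE. Cyp2c37 was at 155.92, 165.8 and 181.63 in NDC, 170.37, 143.22 and 147.57 in NDE, 168.63, 197.65 and 201.28 in DIOC, 171.61, 264.8 and 216.36 in DIOE, 386.03, 150.23 and 631.13 in T1DC and 387.45, 316.74 and 312.28 in T1DE. Cyp2c50 was at 299.59, 315 and 353.41, at 364.07, 299.78 and 261.53, at 292.24, 371.66 and 415.21, at 379.97, 487.05 and 372.46, at 642.55, 360.9 and 601.58 and at 603.21, 599.07 and 577.97 in the same group order. Cyp2c54 was at 119.5, 123.99 and 131.46, at 161.58, 120.14 and 104.78, at 96.07, 127.92 and 133.91, at 129.1, 163.09 and 132.21, at 284.75, 123.5 and 254.56 and at 267.05, 240.56 and 239.32. In each of the 3, T1DC replicate 2 lay within the non-diabetic range and the other 5 diabetic livers lay above it. The log2 differences from NDE were 1.13 (SE 0.33, adjusted p = 0.0195), 0.96 (SE 0.19, adjusted p = 0.00308) and 0.97 (SE 0.24, adjusted p = 0.00857). The Cyp2c37 call was lost without NDE replicate 2 (1.08, adjusted p = 0.0593) or T1DE replicate 1 (1.03, adjusted p = 0.0712). Against NDC, Cyp2c50 alone of them was called (0.69, adjusted p = 0.0311), and all 3 were without replicate 2, at 1.55, 0.95 and 1.10.

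Cyp2c70, which makes muricholic acids from chenodeoxycholic acid in mouse, was called in 5 comparisons, more than any other member, and rose in obesity as well as in diabetes. It was at 94.17, 52.06 and 90.63 FPKM in NDC, 70.48, 71.63 and 43.97 in NDE, 165.62, 133.16 and 196.19 in DIOC, 171.34, 294.09 and 185.93 in DIOE, 205.41, 142.19 and 233.69 in T1DC and 122.19, 152.15 and 126.51 in T1DE. Every DIO and T1D liver was above every ND liver. The log2 difference from NDC was 1.08 in DIOC (SE 0.26, adjusted p = 0.0417) and 1.30 in T1DC (SE 0.26, adjusted p = 0.00715). From NDE it was 1.78 in DIOE (SE 0.26, adjusted p = 0.00338) and 1.12 in T1DE (SE 0.26, adjusted p = 0.00673). The DIOC call is the weakest of these and was lost when any 1 of its 6 libraries was left out, with log2 differences of 0.81 to 1.23 over all settings. T1DE was lower than DIOE by a log2 difference of -0.66 (SE 0.26, adjusted p = 0.0416), with no overlap, and this call was lost without DIOE replicate 2 or T1DE replicate 1 or 3.

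Obesity moved few other members. In DIOC against NDC, Cyp2c70 was the 1 member higher (0.666% of all genes) and Cyp2c40 the 1 lower (0.842%), and the members' median log2 difference was -0.16 beside -0.01 over all genes. Cyp2c40, an arachidonic acid hydroxylase, was at 9.57, 2.36 and 7.29 FPKM in NDC, 2.55, 1.48 and 2.2 in NDE, 0.07, 0.52 and 1.04 in DIOC, 1.34, 1.82 and 1.03 in DIOE, 4.66, 2.85 and 3.42 in T1DC and 5.09, 2.33 and 2.81 in T1DE. Each DIOC library was below each NDC library, and the log2 difference was -2.16 (SE 0.35, adjusted p = 0.00358), called in all 12 settings tried. As 72.121% of its 50-base stretches are shared, its level and that of Cyp2c69 cannot be taken as fully separate. At an unadjusted p under 0.05 in limma, 12 of 37 members differed, 4 higher and 8 lower, beside 15.88% of all genes. Among the 12 were the related Cyp2c67 (-0.94, adjusted p = 0.0613), Cyp2c68 (-0.75, adjusted p = 0.0834) and Cyp2c69 (-1.21, adjusted p = 0.0528), which were not called. In DIOE against NDE, Cyp2c70 was again the 1 member higher (0.333% of all genes) and none was lower (0.666%), with a median of -0.12 for members and all genes alike. There 7 of 37 members were at an unadjusted p under 0.05 in limma, beside 18.44% of all genes. Every DIOC library was above every NDC library for 5 members (9.809% of all genes) and below for 9 (11.23%). For DIOE and NDE these were 8 (3.341%) and 4 (22.54%).

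Cyp2d9 was the member that fell in diabetes. Cyp2d9 was at 964.68, 825.59 and 1122.68 FPKM in NDC, 898.12, 980.15 and 1061.51 in NDE, 757.22, 927.36 and 749.9 in DIOC, 551.43, 984.25 and 1339.77 in DIOE, 468.5, 656.74 and 404.07 in T1DC and 469.9, 572.72 and 607.22 in T1DE. Every diabetic liver was below every ND liver, with T1DC replicate 2 the highest of the 6. It fell by 0.84 on the log2 scale in T1DE against NDE (SE 0.25, adjusted p = 0.0214) and by 0.95 in T1DC against NDC (SE 0.25, adjusted p = 0.0238), where leaving out replicate 2 gave -1.15 and also called Cyp2d40 lower (-0.63, adjusted p = 0.0488). In T1DE against NDE the call on Cyp2d9 was lost without NDE replicate 2 or 3 or T1DE replicate 1, at -0.84, -0.78 and -0.73 (adjusted p = 0.0556, 0.0581 and 0.0845). In T1DC against NDC it was lost without NDC replicate 1 or 3 or T1DC replicate 1 or 3. The Cyp2d share of the members' summed FPKM was 17.7 to 20.2% in NDC, 19.1 to 20.9% in NDE, 11.6, 13.1 and 20.02% in the T1DC libraries and 12.7 to 15.3% in T1DE. The highest T1DC share was that of T1DC replicate 2, within the NDC range.

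Of the Cyp3a genes, Cyp3a59 was at 10.18, 14.39 and 32.38 FPKM in NDC, 11.4, 8.4 and 9.93 in NDE, 17.66, 17.84 and 21.47 in DIOC, 11.02, 10.66 and 15.71 in DIOE, 41.1, 15.55 and 53.27 in T1DC and 29.21, 31.62 and 26.75 in T1DE. Cyp3a13, found in gut as well as liver, was at 52.77, 55.2 and 55.35, at 44.08, 46.28 and 75.4, at 136.52, 68.4 and 85.95, at 99.05, 75.84 and 73.81, at 84.89, 95.36 and 119.76 and at 95.18, 82.11 and 78.24 in the same order. Cyp3a44, higher in female than in male mouse liver, was at 0, 0.04 and 0.12, at 0.03, 0.03 and 0, at 0.07, 0.59 and 1.35, at 0.58, 0.13 and 0.11, at 1.75, 0.1 and 0.86 and at 1.18, 0.83 and 0.73. T1DE lay above NDE without overlap for each of the 3, as for 50.91% of all genes. Obese livers reached or passed the T1DE range for Cyp3a13 and Cyp3a44. The log2 differences of T1DE from NDE were 1.48 (SE 0.37, adjusted p = 0.00963), 0.65 (SE 0.23, adjusted p = 0.0389) and 0.90 (SE 0.28, adjusted p = 0.0253), the last of them on values near 0. The Cyp3a13 call held without NDE replicate 3 alone (0.90) and the Cyp3a44 call without T1DE replicate 3 alone (0.97), while leaving out any other library of these groups gave an adjusted p of 0.0625 to 0.142 and 0.0514 to 0.0908. In filtered air Cyp3a13 was the Cyp3a gene called, at 0.85 (adjusted p = 0.0242). Cyp3a59 (1.42, adjusted p = 0.00551) and Cyp3a44 (1.10, adjusted p = 0.00666) were called there as well without T1DC replicate 2. Cyp3a41a, whose symbol falls outside the rule, was at 4.98, 0.27 and 2.78 FPKM in T1DC and 3.2, 1.41 and 2.72 in T1DE, and at 0.26 or less elsewhere.

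Set against obese mice, T1DC against DIOC had 13 members higher (5.74% of all genes) and 0 lower (0.861%), and T1DE against DIOE 13 higher (17.6%) and 2 lower (1.38%). The members' medians were 0.56 beside 0.16 over all genes, and 0.44 beside 0.35. At an unadjusted p under 0.05 in limma, 22 of 37 members differed in T1DC against DIOC, beside 33.2% of all genes. In T1DE against DIOE 21 of 37 did, beside 64.58% of all genes. Every T1DE library was above every DIOE library for 22 members (66.05% of all genes) and below for 2 (3.406%). For T1DC and DIOC these were 16 (26.28%) and 1 (3.183%). Without T1DC replicate 2 the calls in T1DC against DIOC were 17 higher (9.18% of all genes) and 2 lower (1.26%). With median-ratio scaling the members were 10 higher and 2 lower in the first comparison and 7 and 3 in the second, while all genes went from 620 and 93 to 317 and 147 and from 1898 and 149 to 514 and 332. The same diabetic libraries enter here and above, so the comparisons are not independent. Cyp2a4, Cyp2b9 and Cyp2b10 passed the limit only with the diabetic livers counted. Their rise is therefore not separate support for these counts either. Cyp2a4, Cyp2a5, Cyp2a12, Cyp2a22, Cyp2b9, Cyp2b10, Cyp2c38, Cyp2c39, Cyp2c40, Cyp2c54 and Cyp2j6 were higher in both. Cyp2d22 and Cyp2c68 were higher in T1DC alone, and Cyp2c69 and Cyp3a59 in T1DE alone, with no test of those differences. Without T1DC replicate 2, Cyp3a59 was called in T1DC as well (1.26, adjusted p = 0.0101). The calls on Cyp2c68 and Cyp2c54 in T1DC against DIOC and on Cyp2c40, Cyp2c69 and Cyp2d9 in T1DE against DIOE were each lost when any of 3 or more single libraries was left out. Without T1DC replicate 1, the total in T1DC against DIOC was 8.

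Cyp2a5 differed from DIOC by a log2 difference of 2.73 (SE 0.63, adjusted p = 0.0101) in T1DC and from DIOE by 2.62 (adjusted p = 0.00337) in T1DE, and Cyp2a22 by 2.57 and 2.63. Cyp2j6, a fatty acid oxidase, was at 22.81, 17.98 and 15.68 FPKM in NDC, 24.32, 21.54 and 11.51 in NDE, 9.89, 10.14 and 12.51 in DIOC, 16.23, 15.05 and 12.08 in DIOE, 28.21, 23.5 and 25.02 in T1DC and 24.97, 29.48 and 25.55 in T1DE. All its DIO libraries lay below all its T1D libraries, and the differences were 1.17 (SE 0.21, adjusted p = 0.0024) and 0.85 (adjusted p = 0.00366). Cyp2c40 differed by 1.62 (adjusted p = 0.00674) and 0.84 (adjusted p = 0.0461), in the opposite direction to its difference of DIOC from NDC. Cyp2d22 was at 64.09, 77.08 and 66.41 in NDC, 84.41, 70.92 and 64.92 in NDE, 56, 67.77 and 56.28 in DIOC, 51.17, 75.5 and 83.2 in DIOE, 106.42, 83.22 and 118.94 in T1DC and 93.98, 102.96 and 94.28 in T1DE, and differed from DIOC by 0.76 (adjusted p = 0.00764) in T1DC. Cyp2c68 was at 91.42, 82.39 and 110.35, at 85.78, 84.07 and 83.31, at 37.4, 62.78 and 72.69, at 84.46, 88.12 and 59.04, at 109.5, 75.78 and 117.44 and at 125.35, 97.89 and 110.47, and differed by 0.83 (adjusted p = 0.02). Cyp2c69 was at 2.47, 1.51 and 5.47, at 1.98, 0.5 and 1.98, at 0.28, 0.87 and 0.92, at 1.17, 1.47 and 0.79, at 1.73, 2.1 and 1.63 and at 3.48, 1.83 and 3.08, and differed from DIOE by 0.81 (adjusted p = 0.035) in T1DE. Cyp2d9 (-0.72, adjusted p = 0.0233) and Cyp2c70 were the 2 lower in T1DE against DIOE, and Cyp2d9 overlapped there.

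**Figure D3:**
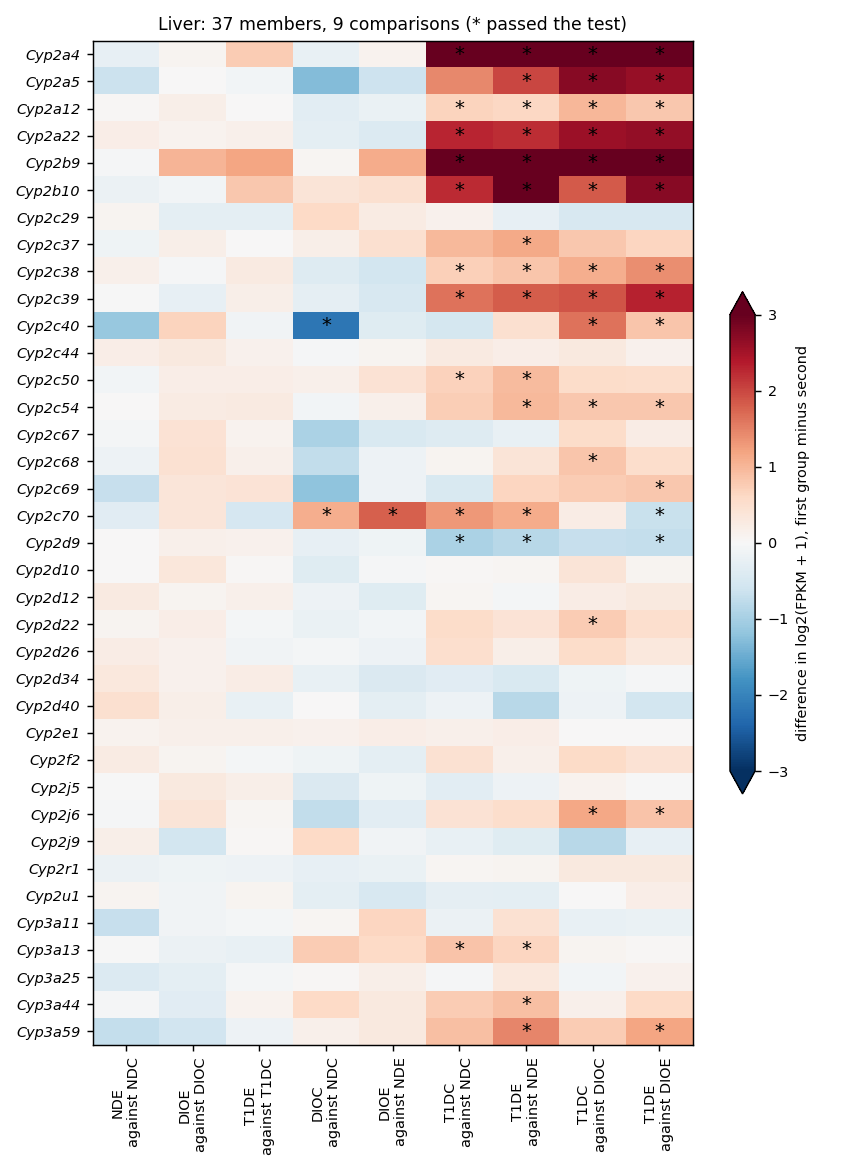
Log2 differences of the 37 liver members in each comparison, blue for lower and red for higher on a scale that ends at 3 on either side, with an asterisk on each call. The Cyp2a and Cyp2b rows are red in the 4 columns of T1D against ND or DIO, and there is no asterisk in the columns of PM2.5 against filtered air.

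Over all 58 calls, 21 of 37 liver members were called at least once and 16 were not called in any comparison. Of those 16, Cyp2d26 and Cyp2d40 were called once T1DC replicate 2 was left out. In the comparisons of PM2.5 with filtered air there were none. In NDE against NDC, 0 members were called (0.00925% of all genes in either direction), with 3 lower at an unadjusted p under 0.05 in limma, led by Cyp2c40 (-1.13, adjusted p = 0.626). In DIOE against DIOC 0 were called (0% of all genes) and 1 had an unadjusted p under 0.05, Cyp2d10, whose log2 difference was 0.33 (adjusted p = 0.186). In T1DE against T1DC 0 were called (0.916%) and 0 had an unadjusted p under 0.05, or 6 without T1DC replicate 2. The tests of whether PM2.5 acted differently between states also called 0 members, where 0% of all genes were called for DIO minus ND, 0.416% for T1D minus ND and 0.333% for T1D minus DIO, with 3, 1 and 2 members at an unadjusted p under 0.05. Without T1DC replicate 2, T1D minus ND and T1D minus DIO had 3 and 7 such members and again 0 calls. With all libraries, 5.34%, 13.84% and 11.8% of all genes were at that unadjusted limit in the exposure comparisons, in the order given. In the tests between states the shares were 5.747%, 9.698% and 17.18%. With 3 libraries against 3, these tests do not show that the groups were alike.

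The members that were not called in liver with all libraries are given by their range over its 18 libraries. Beside Cyp2e1, Cyp3a11, Cyp2d26 and Cyp2f2, the abundant ones were Cyp2d10 (357 to 531 FPKM), Cyp2c29 (179 to 447), Cyp3a25 (215 to 428), Cyp2c67 (53.0 to 170.0), Cyp2c44 (79.0 to 144), Cyp2j5 (73.2 to 140), which makes epoxides of arachidonic acid, and Cyp2d40 (31.3 to 97.4). The low ones were the vitamin D 25-hydroxylase Cyp2r1 (3.36 to 7.75), the fatty acid hydroxylase Cyp2u1 (1.99 to 5.71), Cyp2j9 (1.35 to 5.02), Cyp2d34 (0.53 to 2.54) and Cyp2d12 (0.37 to 1.33). These 16 members thus span levels from under 1 to 7280 FPKM.

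**Figure D4:**
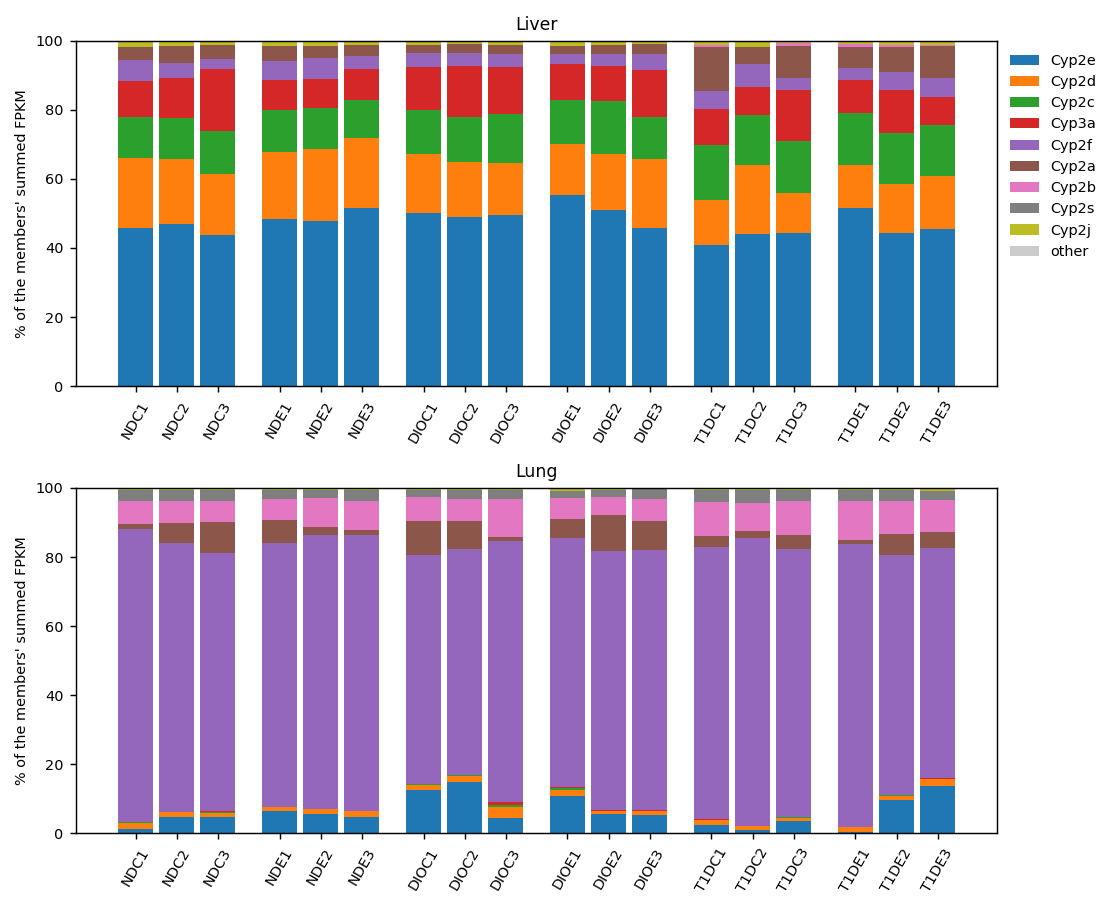
Share of the members' summed FPKM taken by each subfamily in each library, as stacked percentages, for lung and liver. Cyp2e takes 40.7 to 55.4% in liver and Cyp2f 65.2 to 84.6% in lung.

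In lung, 16 members were tested and none was called in the 12 comparisons. The share of all genes called in either direction was 0% in NDE against NDC and in DIOE against DIOC, 0.165% in T1DE against T1DC, 0.107% in DIOC against NDC and in T1DC against NDC, 0.0286% in DIOE against NDE, 0.286% in T1DE against NDE, 0.0286% in T1DC against DIOC, 0.544% in T1DE against DIOE, and 0%, 0.00716% and 0% in the tests of PM2.5 in DIO minus ND, T1D minus ND and T1D minus DIO. In that order, limma gave 0, 1, 0, 4, 2, 1, 1, 3, 2, 2, 0 and 2 members of 16 at an unadjusted p under 0.05. The share of all genes at that limit was 1.653%, 2.505%, 11.79%, 11.09%, 12.53%, 4.909%, 12.72%, 8.187%, 18.13%, 1.918%, 6.055% and 6.276%. The nearest to a call was Cyp2d22 in DIOC against NDC, at 25.06, 27.53 and 22.87 FPKM in NDC and 37.22, 37.1 and 41.25 in DIOC, which did not overlap (log2 difference 0.60, SE 0.12, adjusted p = 0.0893). Cyp2b10, as abundant in lung as it was rare in liver, was at 127.64, 116.37 and 127.28 in NDC, 145.26, 185.23 and 147.5 in NDE, 165.9, 141.97 and 199.96 in DIOC, 127, 129.17 and 185.29 in DIOE, 200.2, 172.57 and 233.65 in T1DC and 244.8, 195.7 and 179.23 in T1DE. T1DC was above all NDC libraries, without a call (0.69, adjusted p = 0.186). The low members were Cyp2j6 (4.66 to 7.04), Cyp2j9 (2.83 to 5.03), Cyp3a13 (2.16 to 4.10), Cyp2c65 (0 to 2.47), Cyp2j13 (0.68 to 1.94) and Cyp2r1 (0.45 to 1.22). Against NDC, 3 of the 16 members were higher in every DIOC library (5.518% of all genes) and 3 in every T1DC library (9.132%). Leaving out DIOC replicate 3 added 1 call, Cyp2c65 in DIOC against NDC. Cyp2c65 reached 1 FPKM only in obese lungs, and was at 0 in DIOC replicate 3. Being tested and being higher in obesity are therefore tied for it, and this call is not separate support.

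The other leading lung members varied within groups. Cyp2f2 was at 1581.2, 1418.07 and 1567.12 FPKM in NDC, 1860.57, 1803.05 and 1420.78 in NDE, 1626.16, 1452.35 and 1375 in DIOC, 1498.07, 1947.41 and 2172.36 in DIOE, 1588.48, 1785.95 and 1839.98 in T1DC and 1778.48, 1432.57 and 1294.6 in T1DE. Cyp2s1 was at 57.17, 55.94 and 68.4, at 68.43, 56.84 and 56.01, at 54.42, 57.42 and 43.35, at 44.67, 57.57 and 78.01, at 67.92, 80.91 and 77.48 and at 71.1, 64.27 and 53.8. The highest library was 1.68 times the lowest for Cyp2f2 and 1.87 times for Cyp2s1. Cyp2a5 was at 25.08, 104.77 and 182.65, at 166.01, 54.1 and 25.93, at 239.9, 181.36 and 18.67, at 113.8, 271.99 and 239.64, at 64.45, 41.81 and 96.44 and at 23.77, 125.48 and 89.6. Cyp2e1 was at 24.67, 83.49 and 99.35, at 160.49, 130.09 and 84.85, at 304.75, 333.36 and 82.09, at 227.45, 143.22 and 156.53, at 47.64, 20.41 and 82.39 and at 10.72, 201.33 and 269.56. These 2 genes ranged 14.6-fold and 31.1-fold over the 18 libraries, and high and low libraries occurred within single groups.

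Several lung members moved with markers of other cell types, whose part in the values was not tested. The 6 lung libraries with the most Cyp3a11 (1.01 FPKM or more, up to 7.92 in DIOC replicate 3, against 0.38 or less in the rest) were the 6 with the highest hepatocyte marker score, 2.34 to 5.02 against 0.48 to 1.94. The same 6 led for Cyp2d10 and Cyp2d26, and 5 of them for Cyp2d9. All lung libraries at 1 FPKM or more for any of these 4 genes were among those 6. Passing the limit and following the hepatocyte score are therefore tied for them. The pairs of member and marker list were picked, and other pairs are not given. In DIOC replicate 3 these 4 genes stood at 0.58 to 0.92% of their liver medians, and albumin (Alb) at 1.02%. For Cyp2a5, the 6 highest libraries were the 6 with the highest club cell score (6.89 to 7.23 against 5.16 to 6.75). Cyp2f2, the leading club cell P450, followed that score less closely. It was at 1626.16, 1452.35 and 1567.12 FPKM in DIOC replicates 1 and 2 and NDC replicate 3, which are among these 6. In T1DC replicate 3, which is not, it was at 1839.98. For Cyp2e1, 4 of 6 were among the 6 with the highest white adipocyte score, and for Cyp2c65, 5 of 6 among those with the highest squamous score. All lung libraries with Cyp2c65 at 1 FPKM or more were among the latter, so this match is tied to the limit as well.

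**Figure D5:**
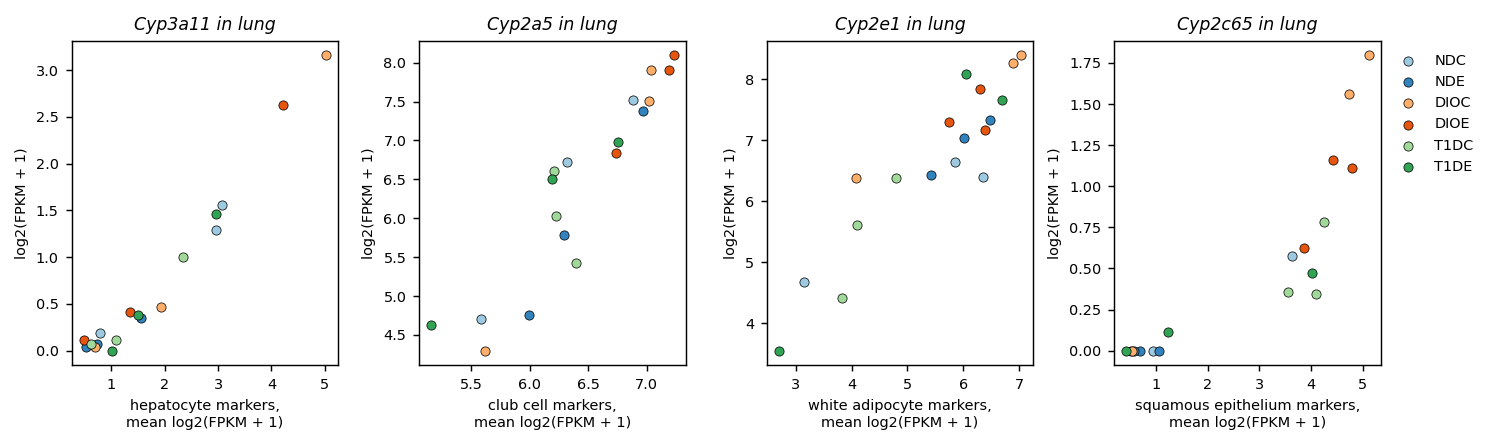
log2(FPKM + 1) of 4 lung members (y) against the mean log2(FPKM + 1) of a marker list (x), 1 point per lung library coloured by group, for Cyp3a11 and hepatocyte, Cyp2a5 and club cell, Cyp2e1 and white adipocyte, and Cyp2c65 and squamous epithelium markers. The DIOC replicate 3 library has the most Cyp3a11, 7.92 FPKM, and the highest hepatocyte score, 5.02.

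The genes that work with the P450s were taken from lists. Of 8 electron partners tested, none was called in T1DE or T1DC against the normal diet with all libraries, and Cyb5r3 was the only one called in T1D against DIO livers (0.71 in T1DC against DIOC, adjusted p = 0.0216). With T1DC replicate 2 left out, Por was called higher in T1DC than in NDC (0.99, adjusted p = 0.0152) and DIOC (1.15, adjusted p = 0.00714), and Cyb5r3 was not. Por was at 399.47, 130.98 and 707.15 FPKM in T1DC, where replicate 2 was again the lowest, and at 236.55, 258.03 and 312.26 in NDC. Of 13 haem genes, Hmox1, the haem-degrading oxygenase, rose in T1DE against NDE (1.09, adjusted p = 0.0267) and no other did. In T1DC against NDC none was called, or 2 higher (Hmox1 and Hmox2) and 1 lower (Alas2) without replicate 2.

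Some targets of CAR and PXR outside the P450s rose beside the Cyp2b genes. Of 23 tested, 10 rose and 0 fell in T1DE against NDE, with a median of 0.65 beside 0.23 over all genes, and 9 rose and 0 fell in T1DC against NDC (16 and 0 without replicate 2), with a median of 0.58 beside 0.16. Gstm2, a glutathione transferase, rose by 1.86 (adjusted p = 2.34e-05), Gstm3 by 3.50 (adjusted p = 0.000158), the glucuronosyltransferase Ugt2b35 by 1.24 (adjusted p = 0.000991) and the oestrogen sulfotransferase Sult1e1 by 3.80 (adjusted p = 0.000958). Gstm3 was at 10.4, 6.67 and 6.37 FPKM in NDE, 66.18, 95.1 and 143.21 in T1DE and 112.93, 23.52 and 55.73 in T1DC. Among 26 receptors and liver factors, CAR itself (Nr1i3) was at 83.95, 67.93 and 59.93 in NDE, 122.95, 101.08 and 96.8 in T1DE and 77.22, 56.33 and 66.15 in T1DC, and was higher in T1DE than in NDE (0.60, adjusted p = 0.00662) and T1DC (0.68, adjusted p = 0.0215), where the call was lost without T1DC replicate 2. PXR (Nr1i2) was not called. In T1DE against NDE Ppara (-0.62) and Cebpb (-1.38) were lower, and in DIOC against NDC Cebpa (-0.78) and Onecut1 (-2.35) were lower. Cebpb went the other way in filtered air without T1DC replicate 2, at 0.74 in T1DC against NDC (adjusted p = 0.0171 in limma). In that fit it was lower in T1DE than in T1DC (-1.64, adjusted p = 0.000803).

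Genes known to differ between male and female mouse liver also moved. Of 10 female-biased genes outside families 2 and 3, 5 rose and 0 fell in T1DE against NDE and likewise in T1DC against NDC, where the count without replicate 2 was 7. Among them Sult3a1, a sulfotransferase, rose by 1.45 (adjusted p = 4.11e-05) and Cyp17a1, a steroid 17-alpha-hydroxylase, by 2.16 (adjusted p = 0.0035) in T1DE against NDE. Of 15 male-biased genes, 1 rose and 5 fell in T1DE against NDE, and 1 rose and 4 fell in T1DC against NDC, or 1 and 10 without replicate 2. Slco1a1, a bile acid and anion carrier singled out for its spread in T1DC, was at 122.55, 116.13 and 63.33 FPKM in NDE, 3.75, 15.75 and 6.38 in T1DE and 5.89, 70.71 and 1.08 in T1DC. Replicate 2 of T1DC lay among the non-diabetic livers for this gene. The exception among the male-biased genes was the carboxylesterase Ces2e, which rose by 1.495 (adjusted p = 5.21e-05). Of 11 regulators of growth hormone action and sex bias, Cish rose (1.17) and Bcl6 (-1.36) and Igfals (-0.76) fell in T1DE against NDE, and none was called in T1DC against NDC. Without replicate 2, Cux2 (2.29), Socs2 (1.60) and Tox (0.74) were called higher there. The lists were chosen with earlier results of these data known.

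Clock output factors, which vary with the hour, were called lower in both states. Of 6 tested in liver, 3 fell in DIOC against NDC, 4 in DIOE against NDE, and 2 in each T1D comparison with the normal diet, and in lung 3 fell in each of the 4. Dbp, which binds D-boxes in P450 promoters, fell by 4.57 on the log2 scale in DIOC against NDC liver (adjusted p = 0.000854) and by 2.28 in T1DE against NDE liver (adjusted p = 0.00858). The hour of collection is not given, and its part in the P450 values was not tested. Of 16 targets of the fatty acid receptor PPAR alpha, 6 fell and 0 rose in T1DE against NDE, including Fabp1 (-1.70) and Acaa1b (-1.39), and in T1DC against NDC 2 fell, or 2 rose and 2 fell without replicate 2.

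Some markers of other liver cells and zones were called in diabetic livers as well, and their part in the P450 values was not tested. Of all genes 8.25% rose in T1DE against NDE and 4.39% in T1DC against NDC. Of 9 macrophage markers tested, 6 rose in T1DE against NDE, among them Adgre1 (1.15) and Vsig4 (0.81), whereas 1 fell and 0 rose in T1DC against NDC. Of 12 pericentral hepatocyte markers, which mark the zone where most of these P450s are made, 4 rose in T1DE against NDE, among them Rhbg (1.16) and Axin2 (0.89), and 1 in T1DC against NDC, and of 12 periportal markers 3 and 1 rose. A count of 1 in 12 is close to the share over all genes in T1DC against NDC, and the T1DC counts were the same without T1DC replicate 2. Of 16 hepatocyte markers none rose, and Mup20, which is also male-biased, fell by 1.74 in T1DE against NDE. In T1DC against NDC 2 of the 16 fell, or 4 without replicate 2.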

How the data were processed

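RNA-seq libraries were made from poly-A RNA of 18 lungs and 18 livers, 3 per group. According to the submitters' processing notes, reads, cleaned with SOAPnuke per the study's methods, were handled with Bowtie2 and RSEM on GRCm38, and the FPKM values deposited by the authors (2 decimals) were used as they stand. The sources used here give no versions, annotation release or use of strand. Groups came from the sample labels. The test covered genes reaching 1 FPKM in 3 or more of a tissue's libraries (13973 for lung, 10806 for liver). Using limma 3.58.1 (R 4.3.3), log2(FPKM + 1) was modelled with 6 group means per tissue and an intensity trend. Tests were two-sided, with Benjamini-Hochberg adjustment per comparison over all genes tested, and the study's limits of adjusted p under 0.05 and fold over 1.5. Differences are on the log2(FPKM + 1) scale, which understates the change of low genes. The p-values measure the spread between these samples only. The fit was tested on simulated data. Depth was estimated from low FPKM values.

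Every member was accounted for. Values in every library are given for members called in any comparison and for the 5 of highest mean FPKM in each tissue, and up to 4 called genes per list are named, with others singled out for a reason stated beside them. The members and lists were chosen with earlier results of these data known. RefSeq promoters (GRCm38.p6) and GENCODE transcripts were matched by gene ID, for 54 members with a transcript and 47 with a promoter. Alternatives were another pseudocount, no filter, 2 other scalings, the compared groups alone, a replicate block, leaving out each library, and, in lung, hepatocyte or club cell scores as covariates. Some genes of the lists are not reported here by name.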

Additional observations from a re-analysis of the deposited data

How the results depend on the processing

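Of the 58 calls on liver members, none changed direction under the alternatives tried. Fitting the compared groups alone lost 18 of them, median-ratio scaling 19, quantile normalization 16, no filter 8, and a pseudocount of 0.1 lost 2. In liver, members called in T1DC against NDC went from 11 to 7 with median-ratio scaling and to 1 with the groups alone, and to between 6 and 19 when 1 library was left out. Those in T1DC against DIOC went from 13 to 6 with the groups alone and to between 8 and 19. Those in T1DE against DIOE went from 15 to 9 with quantile normalization. In DIOC against NDC the count of 2 became 1 without the filter and 1 to 2 with a library left out. In T1DE against T1DC it was 0 to 1, the 1 being Cyp2b10 without T1DC replicate 3. In lung DIOC against NDC it was 0 to 1, the 1 being Cyp2c65 without DIOC replicate 3. It was 1 also without DIOC replicate 3 and DIOE replicate 1 together, an alternative chosen after seeing the data. Cyp2c65 passed the limit only through obese lungs, so that call is tied to the limit. The set of list counts without T1DC replicate 2 was also chosen after seeing the data. So was the choice to print member results without that library beside the main ones. With a hepatocyte or club cell score as covariate, 0 lung members were called in all 12 comparisons. The causes were not tested.

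Replicate numbers are shared between groups, and the labels do not say whether they pair the samples. The study matched mice by body weight into pairs within each metabolic state before exposure. In no comparison did all 3 same-numbered pairs correlate above 0.1 (range -0.6 to 0.758). With 3 libraries per group this cannot show that pairing was absent. With the replicate block, DIOC against NDC in liver had 1 member called, Cyp2c70 being lost, and 3 of the 58 calls were lost in all. Depth limits members near 1 FPKM, and 3 libraries per group limit every comparison.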
